A study of Mus musculus with 22 samples.

Results

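The mouse miRNAs named miR-466, miR-467 and miR-669 were followed through the small intestine, serum and feces of irradiated and unirradiated mice. Members were taken by name alone, as every mouse miRNA on the array called miR-466, miR-467 or miR-669 followed by a letter, with either arm of the hairpin. The rule found 58 of the 1881 miRNAs on the array, 23 of miR-466, 12 of miR-467 and 23 of miR-669. The family was chosen by its measured values in feces, higher at 10 Gy than at 0 Gy, so the comparison of doses in feces is a description and carries no test. The RNA came from male mice aged 8 weeks that were exposed to X-rays at 1.0 Gy per minute to a dose of 10 Gy, or received 0 Gy. Small intestine and feces had 4 arrays at each dose, and serum had 2 arrays at 0 Gy and 4 at 10 Gy, 22 in all. The strain and the time from exposure to collection are not in the labels. Because the labels do not tie samples to separate mice, p-values measure only the spread between these samples, which may be technical.

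Sfmbt2 encodes a polycomb protein, and the gene is imprinted, with the paternal copy expressed in early embryonic and extraembryonic tissue. An intron of the mouse gene holds a long tandem array of miRNA hairpins of the miR-297, miR-466, miR-467 and miR-669 families, a rodent expansion known mainly from embryonic stem cells and placenta. Hairpins of this kind arise from simple repeats, so that the strand named 5p is often rich in G and U and the strand named 3p in A and C. Hairpins with the same family names also lie at other places in the genome.

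In the gene annotation, 48 members had all their genes within Sfmbt2, 8 had all their genes elsewhere, and the 2 arms of miR-466f had genes at both. Mature sequences of 7 members were matched in RefSeq (GRCm38.p6), and all 7 had different seeds (bases 2 to 8, the part of a miRNA that pairs first with its targets). The sequences below belong to the members with the most signal that were matched. They show the repeats found in members, with the seed in capitals.
miR-669n: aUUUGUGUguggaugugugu
miR-466i-3p: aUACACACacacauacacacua
miR-466q: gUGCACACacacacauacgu
miR-467f: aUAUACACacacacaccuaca
The G or U share was 90.0% in miR-669n, whose gene copy is at chr3:115979905-115979924 on the plus strand. The A or C share was 86.4% in miR-466i-3p (chr13:17747552-17747573, plus strand), 85.7% in miR-467f (chr11:69635419-69635439, minus strand) and 70.0% in miR-466q (chr3:28419988-28420007, plus strand). These 4 are members whose genes lie outside Sfmbt2. The other members that the results below turn on, named without a sequence here, were miR-466i-5p, miR-669p-3p, miR-466h-3p, miR-466f-3p, miR-669c-3p, miR-466g and miR-669e-5p.

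Similar repeats occur in miRNAs outside the family, and 4 of these are shown because they were measured on the same arrays and are set beside the members below.
miR-574-5p: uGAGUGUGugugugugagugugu
miR-1187: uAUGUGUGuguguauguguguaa
miR-3082-5p: gACAGAGUgugugugucugugu
miR-574-3p: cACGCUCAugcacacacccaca
The repeat UGUGUGU or GUGUGUG was found in 12 of 1608 array miRNAs with a sequence (0.746%) and in 3 of the 7 matched members. The repeat ACACACA or its shifted form CACACAC, or else AUACAUA or its shifted form ACAUACA, was found in 8 of 1608 (0.498%) and in 4 of the 7 members. Each motif was read on the mature strand only, and the motifs of a set overlap each other. A match describes the letters of the sequence and nothing else.

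Signals are given as relative signal, the background-subtracted intensity summed over a miRNA's probes, in percent of a reference, which is the 75th percentile on the same array of those miRNAs that every array of its sample type detected. A relative signal of 100% equals this reference. Detection on an array required a probe with 50% or more of its spots flagged as well above background. Levels were compared between arrays for the same miRNA. Mean signals were ranked between miRNAs only to choose which members to print, and nothing is read from that rank. The reference signal ran from 439 to 880 scanner units in intestine, from 128 to 517 in serum and from 529 to 2630 in feces. Arrays of a group correlated at r between 0.887 and 0.994 across miRNAs. Per the file headers intestine, serum and feces each lay on a slide of their own, so slide and sample type cannot be told apart. Within a slide the 10 Gy arrays filled columns 3 and 4 and the 0 Gy arrays the columns before them. Dose and column therefore cannot be told apart, whereas both rows held both doses. All 7 epithelial marker miRNAs (miR-192, miR-194, miR-215 and miR-200 members) were detected on every intestine and feces array and on no serum array. On both 0 Gy serum arrays 2 of 3 red cell markers and 2 of 4 smooth muscle markers were detected, and liver miR-122-5p was detected on no array.

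Most of the family was not detected in these samples, at a share close to that of all miRNAs. Of the 58 members, 24 were detected on at least 1 array (41.4%), against 856 of all 1881 miRNAs (45.5%), and 34 were detected on none. The detected members were 12 of the 23 named 5p, 7 of the 25 named 3p and 5 of the 10 with no arm in the name. Location divided them further. Of the 48 members encoded only within Sfmbt2, 16 were detected, and of the 8 encoded only elsewhere, 6 were. The intestine arrays detected 23 members between them, the feces arrays 21 and the serum arrays 2. Only miR-466i-5p, encoded outside Sfmbt2, was detected on all 22 arrays.

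**Figure D1:**
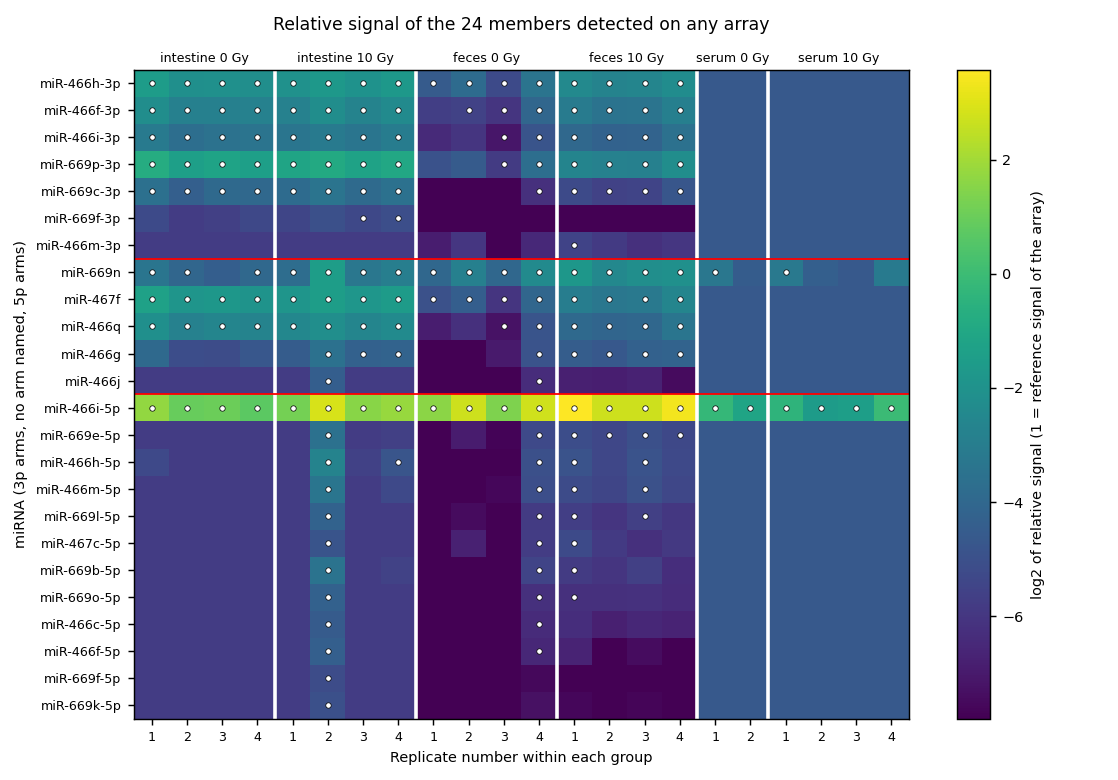
Relative signal of the 24 detected members (rows, by arm) on the 22 arrays (columns, by group and replicate), as log2 of the relative signal where 0 equals the array's reference signal, with a white dot where the member was detected. Colours are to be compared within a row and a sample type; the 5p rows show dots on intestine 10 Gy replicate 2 and feces 0 Gy replicate 4 that most other arrays lack.

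Single arrays stood out by how many members they detected. In intestine the 0 Gy arrays detected 9, 9, 8 and 9 members in replicates 1 to 4, and the 10 Gy arrays 9, 22, 11 and 12. The 22 members of 10 Gy replicate 2 came from 387 detected miRNAs, and replicate 3 of that group detected 389 miRNAs but 11 members. In feces the 0 Gy arrays detected 4, 5, 8 and 20 members and the 10 Gy arrays 18, 11, 14 and 11. Replicate 4 at 0 Gy, with 20 members of 585 miRNAs, thus detected more members than any 10 Gy feces array, and replicate 3 at 0 Gy detected 8 although it had the most miRNAs of all, 675. In serum 2 members were detected on replicate 1 of each dose and 1 on each of the other arrays.

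The members beyond the 11 described below were measured on few arrays. These 13 were each detected on 1 to 5 arrays. On intestine 10 Gy replicate 2 the 5p arms miR-466h-5p, miR-466m-5p and miR-669b-5p had relative signals of 15.5%, 9.53% and 9.11%, and miR-669f-5p had 2.78%. On feces 0 Gy replicate 4 miR-466h-5p had 3.08%, miR-466m-5p 3.03% and miR-669b-5p 2.26%. miR-669f-3p was the only one of the 13 detected on intestine 10 Gy replicates 3 and 4 and not on replicate 2.

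In the small intestine 9 of the 58 members could be tested between doses, and 7 of these differed by less than 0.3 on the log2 scale, while miR-669n and miR-466i-5p had larger differences. Of the 9, each detected on at least 4 of the 8 intestine arrays, 1 rose at 10 Gy (miR-669n) and none fell in limma's moderated test with Benjamini-Hochberg adjustment over the 335 miRNAs tested, at an adjusted p below 0.05. Over all tested miRNAs the share called was 41.8% in either direction and 26.0% higher. The groups overlapped for all 9 members, whereas they did not overlap for 39.4% of all tested miRNAs. The median difference, 10 Gy minus 0 Gy on the log2 scale, was 0.16 over the 9 members and 0.16 over all tested miRNAs. In bulk samples such as these, fewer cells of a type and less RNA per cell cannot be told apart.

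miR-669n had relative signals of 9.60%, 6.17%, 4.76% and 6.43% on the 0 Gy intestine arrays and of 7.55%, 36.4%, 10.2% and 13.3% on the 10 Gy arrays, in order of replicate. It was detected on 3 and 4 of 4 arrays. The groups overlapped, since 10 Gy replicate 1 lay below 0 Gy replicate 1, and 10 Gy replicate 2 was far above the rest. The fitted difference was 1.09 ± 0.40 on the log2 scale (SE, n = 4 and 4), 2.13-fold, with a limma adjusted p of 0.043. Its 2 probes gave 1.08 and 1.11, and the difference was 1.11 and 1.08 within slide rows 1 and 2. Without 10 Gy replicate 2 the difference was 0.63 with an adjusted p of 0.060, and the call was also lost without 0 Gy replicate 2 or 3 (adjusted p of 0.10 and 0.11) or 10 Gy replicate 3 or 4 (0.067 and 0.073). The call was lost in 14 of the 20 alternatives that tested it, over which its adjusted p ran from 0.016 to 0.66.

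miR-466i-5p had relative signals of 329%, 190%, 201% and 165% at 0 Gy and of 230%, 732%, 298% and 358% at 10 Gy. The order of the arrays was that of miR-669n at 10 Gy, with replicate 2 highest and replicate 1 lowest, and replicate 1 was highest at 0 Gy for both. The difference of 0.78 ± 0.33 did not pass (limma adjusted p = 0.069), and it was 0.45 without 10 Gy replicate 2. It passed without 0 Gy replicate 1 (0.99, adjusted p = 0.025) and without 10 Gy replicate 1 (1.01, adjusted p = 0.045).

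The 3p arms, miR-466q and miR-467f had small differences between doses. miR-669p-3p had relative signals of 59.4%, 38.6%, 43.2% and 38.6% at 0 Gy and of 44.3%, 54.8%, 41.8% and 50.7% at 10 Gy. miR-467f had 41.6%, 27.5%, 28.9% and 25.9% at 0 Gy and 27.6%, 35.8%, 27.9% and 34.4% at 10 Gy. The highest 0 Gy array exceeded every 10 Gy array for both of these members. The differences were 0.11 ± 0.19 for miR-669p-3p and 0.04 ± 0.20 for miR-467f, with limma adjusted p-values of 0.68 and 0.89.

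The same array, 0 Gy replicate 1, was the highest of its group for the next 4 members. miR-466h-3p had 34.8%, 22.9%, 23.8% and 22.3% at 0 Gy and 24.6%, 30.1%, 24.8% and 30.0% at 10 Gy. miR-466q had 23.0%, 14.4%, 16.2% and 15.1% at 0 Gy and 17.3%, 22.1%, 16.4% and 19.8% at 10 Gy. miR-466f-3p had 21.3%, 13.9%, 13.9% and 14.4% at 0 Gy and 14.2%, 21.7%, 15.2% and 19.4% at 10 Gy. The last of the 4, miR-466i-3p, had 11.7%, 7.87%, 8.79% and 9.27% at 0 Gy and 9.76%, 11.4%, 9.68% and 12.5% at 10 Gy. Differences ran from 0.10 ± 0.19 (miR-466h-3p) to 0.21 ± 0.18 (miR-466i-3p), and the ninth member, miR-669c-3p, had 0.28 ± 0.20. None of these 5 passed, with limma adjusted p-values from 0.28 to 0.71.

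**Figure D2:**
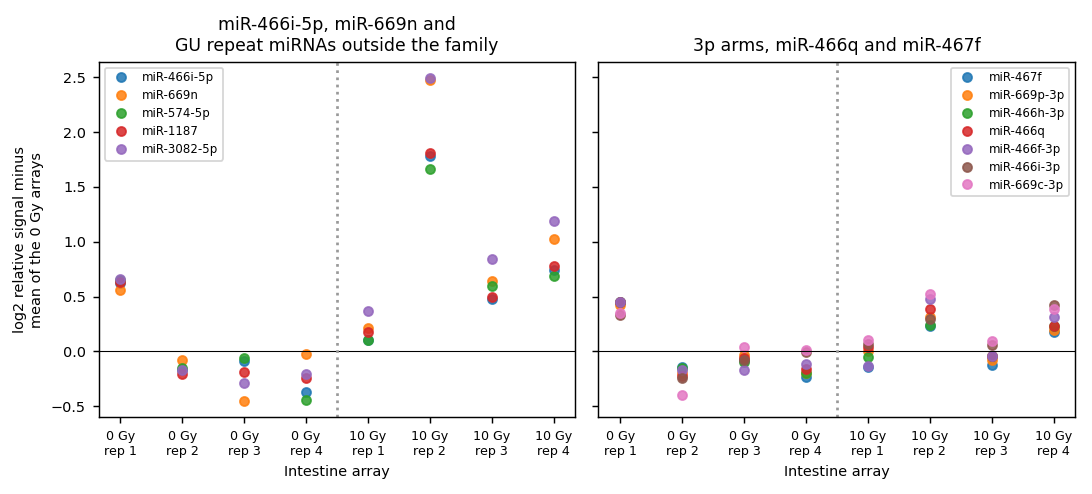
Log2 relative signal of each intestine array minus the mean of the 0 Gy arrays (vertical axis) for 8 arrays (horizontal axis, dotted line between doses); each point is 1 miRNA on 1 array. On the left miR-466i-5p, miR-669n and 3 GU repeat miRNAs outside the family reach their highest points on 10 Gy replicate 2; on the right the other 7 members lie close to 0 at both doses.

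The direction of the small differences depended on the scaling. When the 75th percentile was taken over all miRNAs the median of all tested miRNAs was -0.35 and that of the 9 members -0.36, and 7 of the 9 turned to lower values. With quantile normalization both medians were 0.01 and 4 members turned. With normexp background correction, which added an offset of 50 scanner units to every spot, 7 turned. Without scaling the median of all tested miRNAs was 0.62, that of the members 0.62, and all 9 members were called higher. miR-669n and miR-466i-5p were higher at 10 Gy in each of these. The share of calls that were higher, 62.1% as reported, was 19.6%, 45.5%, 27.5% and 93.5% in the same 4 settings. The summed epithelial markers were 9600% to 13600% of the reference at 0 Gy and 4730% to 8940% at 10 Gy, and their part in the members' values was not tested.

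The 5p arms shared their highest intestine array. All 12 detected 5p members had their highest relative signal on 10 Gy replicate 2, as had 125 of the 438 detected miRNAs (28.5%). Of the 12, 10 were detected in intestine on that array alone, which fixed their highest array, so the count supports nothing beyond their detection there. The same held for 3 of 6 detected 3p members and 3 of 5 members with no arm in the name. Outside the family, all 6 detected miRNAs with a GU repeat also had their highest intestine signal there. Only 3 of these 6 were detected on enough intestine arrays to be tested. For the rest, detection on few arrays may have fixed the highest array, so this count is no support either.

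Those outside miRNAs that could be tested gave the same order of the 10 Gy arrays as miR-669n. miR-574-5p, the GU rich arm of a hairpin in an intron of Fam114a1, had relative signals of 111%, 63.7%, 67.9% and 52.1% at 0 Gy and of 75.8%, 224%, 107% and 114% at 10 Gy. miR-3082-5p had 34.8%, 19.6%, 18.0% and 19.1% at 0 Gy and 28.4%, 124%, 39.4% and 50.3% at 10 Gy. For both, 10 Gy replicate 2 was highest and the groups overlapped, as for miR-466i-5p and miR-669n. The difference was 1.23 ± 0.38 for miR-3082-5p (limma adjusted p = 0.022), 0.82 ± 0.32 for miR-1187 (0.057) and 0.76 ± 0.31 for miR-574-5p (0.067). Thus 1 of the 3 tested passed, against 41.8% of all tested miRNAs, with a median of 0.82. Among the 2 tested miRNAs outside the family with an AC repeat, miR-574-3p had 0.42 (adjusted p = 0.19) and miR-494-3p fell by 1.40 on the log2 scale (adjusted p = 0.023). Whether probes bound related repeats of other RNAs was not tested.

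Other miRNAs of imprinted or neighbouring clusters were counted beside the family. Of the 3 miR-297 miRNAs on the array, which share the Sfmbt2 cluster, 1 was detected on any array and none could be tested in any comparison. Of 25 miRNAs of the imprinted Dlk1-Dio3 cluster, 10 were detected and 7 tested in intestine. Over all tested miRNAs there, 41.8% were called in either direction and 26.0% higher. In the cluster 4 rose and 2 fell, with a median of 0.49 against 0.16 over all tested miRNAs. Among those that fell was miR-494-3p, already given above with the AC repeats. miR-379-5p rose by 0.87 ± 0.18 (limma adjusted p = 0.0025) and miR-134-5p fell by 0.77 on the log2 scale (adjusted p = 0.013), with no overlap between doses.

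In feces the family had higher relative signals at 10 Gy, which is the reason it was chosen. Of 11 members detected on at least 4 of the 8 feces arrays, 8 had higher values at 10 Gy without overlap, among 19.8% of all 491 tested miRNAs that were higher without overlap. In the fit over all tested miRNAs 8 of the 11 were called higher, as were 3.46% of all tested miRNAs, but the family was chosen by these values, so this is no test of it and nothing is read from either count. The median difference was 2.11 over the 11 members and 0.15 over all tested miRNAs. With normexp, whose offset of 50 scanner units shrinks log2 differences of low signals, the members' median was 0.68 and 1 member did not overlap. With log2 probe values averaged in place of sums, which includes undetected probes and has a higher floor, the median was 0.89. A member that passed only through the arrays where it was high had to differ, and 4 of the 11 were detected on all 8 feces arrays.

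The 3 members with the highest mean signal among the 3p arms, miR-466q and miR-467f showed a common pattern. miR-669p-3p had relative signals of 3.28%, 4.36%, 1.77% and 7.73% on the 0 Gy feces arrays and of 15.9%, 14.3%, 13.9% and 21.4% on the 10 Gy arrays. miR-467f had 3.15%, 4.79%, 1.52% and 6.14% at 0 Gy and 12.6%, 10.3%, 10.8% and 16.4% at 10 Gy. miR-466h-3p had 4.34%, 7.03%, 2.65% and 9.27% at 0 Gy and 18.2%, 15.2%, 16.2% and 20.8% at 10 Gy. In all 3 the 0 Gy arrays had the order replicate 3, 1, 2 and 4 from low to high, and all lay below the 10 Gy arrays. The differences were 2.11 ± 0.42, 1.83 ± 0.42 (3.57-fold) and 1.74 ± 0.38 (3.34-fold). miR-669p-3p was detected on 2 of the 4 arrays at 0 Gy, so its difference is set in part against values not well above background. Its 4 probes taken singly gave 1.26 to 1.46, against a higher floor of -6.10 on the log2 scale. The other 2 members were detected on all 8 feces arrays.

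The next 3 members were not detected on every feces array. miR-466q had 0.842%, 1.33%, 0.660% and 3.46% at 0 Gy and 6.65%, 5.95%, 6.22% and 9.66% at 10 Gy. miR-466f-3p had 1.92%, 2.12%, 1.52% and 6.06% at 0 Gy and 12.0%, 9.09%, 9.42% and 13.6% at 10 Gy. miR-466i-3p had 1.17%, 1.51%, 0.718% and 3.5% at 0 Gy and 6.44%, 5.43%, 5.51% and 8.49% at 10 Gy. Again replicate 4 was the highest 0 Gy array, and the doses did not overlap. The differences were 2.46 ± 0.49, 2.14 ± 0.42 and 2.13 ± 0.45. At 0 Gy miR-466q and miR-466i-3p were detected on 2 of 4 arrays and miR-466f-3p on 3 of 4, so these differences are set in part against values not well above background. They are sums over probes. Probes taken singly were floored at -6.10 on the log2 scale, against -7.79 for the sums. Their smaller differences are therefore set in part by that floor. Of the 2 probes of miR-466q, 1 was detected on no feces array and the other gave 1.79. The 2 probes of miR-466i-3p gave 0.20 and 1.51. Of the 4 probes of miR-466f-3p, the 2 that were detected gave 0.90 and 1.77.

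miR-466i-5p and the GU rich miR-669n overlapped between doses. miR-466i-5p had 308%, 652%, 263% and 674% at 0 Gy and 1190%, 648%, 658% and 1030% at 10 Gy. miR-669n had 6.27%, 14.1%, 6.36% and 19.4% at 0 Gy and 29.6%, 18.0%, 22% and 23.8% at 10 Gy. For each, 0 Gy replicate 4 exceeded 1 or more of the 10 Gy arrays. The differences were 0.97 ± 0.39 and 1.17 ± 0.40, the 2 lowest of the 11. GU repeat miRNAs outside the family differed by 0.69 to 1.59 and those with an AC repeat by 1.41 (miR-494-3p) and 1.93 (miR-574-3p). At 0 Gy miR-574-3p was detected on replicate 4 alone, so its difference is set in part against values not well above background.

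The 3 remaining members were detected at 0 Gy on replicate 4 alone and on all 10 Gy arrays. miR-466g had 3.44% on that array and 3.95% to 5.54% at 10 Gy. miR-669c-3p had 1.35% there and 2.13% to 3.74% at 10 Gy, and miR-669e-5p had 2.55% against 2.38% to 3.07%, which overlapped. Their differences of 2.48, 2.15 and 1.71 rest on values raised to the floor of 0.452% on 1 or more of the other 0 Gy arrays, so their size is set in part by the floor. With log2 probe values averaged in place of sums they were 0.19, 0.40 and 0.22. These averages include probes that no feces array detected, which differed by 0, and use the higher floor of single probes. The detected probes gave 0.32 and 0.43 for miR-466g, 0.79 for miR-669c-3p and 0.45 for miR-669e-5p.

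**Figure D3:**
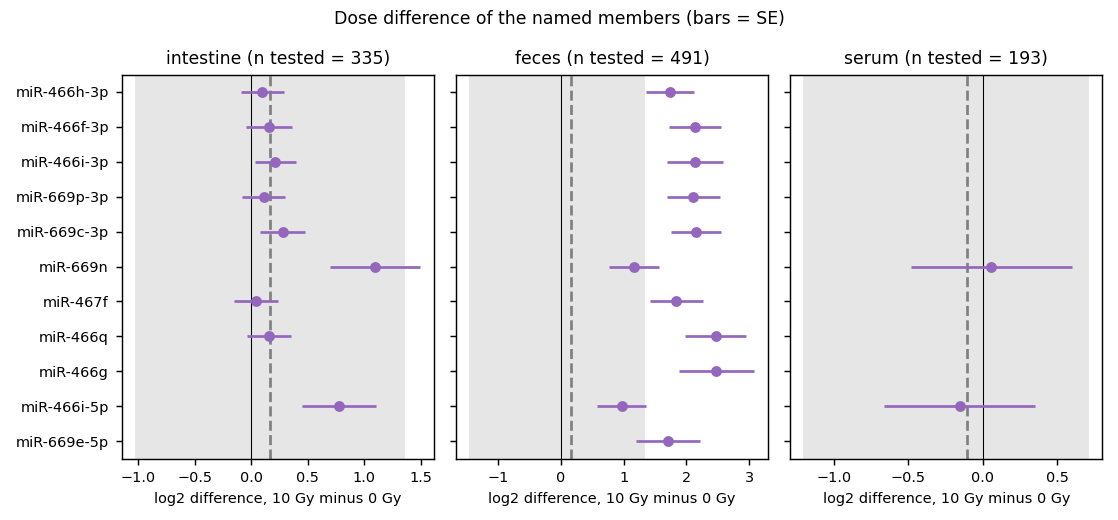
Fitted log2 difference, 10 Gy minus 0 Gy, of the named members tested in intestine, feces and serum (points, bars = SE), with the median of all tested miRNAs (dashed) and the span from their 5th to their 95th percentile (shaded). In feces 9 of 11 points lie to the right of the shaded range, in intestine and serum none do.

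The number of members separated by dose in feces depended on the scaling. The unscaled signals of miR-467f were 26.4, 25.3, 40 and 102 scanner units at 0 Gy and 107, 79.1, 85.7 and 101 at 10 Gy. The unscaled signals of miR-669p-3p were 27.5, 23.1, 46.4 and 129 at 0 Gy and 136, 111, 110 and 133 at 10 Gy. Before scaling, then, 0 Gy replicate 4 lay within the 10 Gy values, and 0 Gy replicates 1 to 3 below them. Without scaling none of the 11 members was separate between doses, and their median was 1.27 while that of all tested miRNAs was -0.49. The reference signal was 838, 529, 2630 and 1670 at 0 Gy and 853, 771, 791 and 620 at 10 Gy, so the high reference of 2 of the 0 Gy arrays enters the scaled values. All 11 differences were above 0 with the percentile over all miRNAs, with normexp, with quantile normalization and without scaling.

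When single feces arrays were left out, the median of the 11 or 14 members measured ran from 1.47 to 2.46, and 8 to 10 members did not overlap. In slide rows 1 and 2 the difference was 1.55 and 2.12 for miR-467f, and 2.00 and 2.22 for miR-669p-3p. Of the calls over all miRNAs 45.9% were higher as reported (17 higher, 20 lower), 33.3% with normexp (1 higher, 2 lower) and 3.7% without scaling (1 higher, 26 lower). The summed epithelial markers in feces were 70.2% to 480% at 0 Gy and 188% to 530% at 10 Gy, which overlapped, and their part was not tested.

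**Figure D4:**
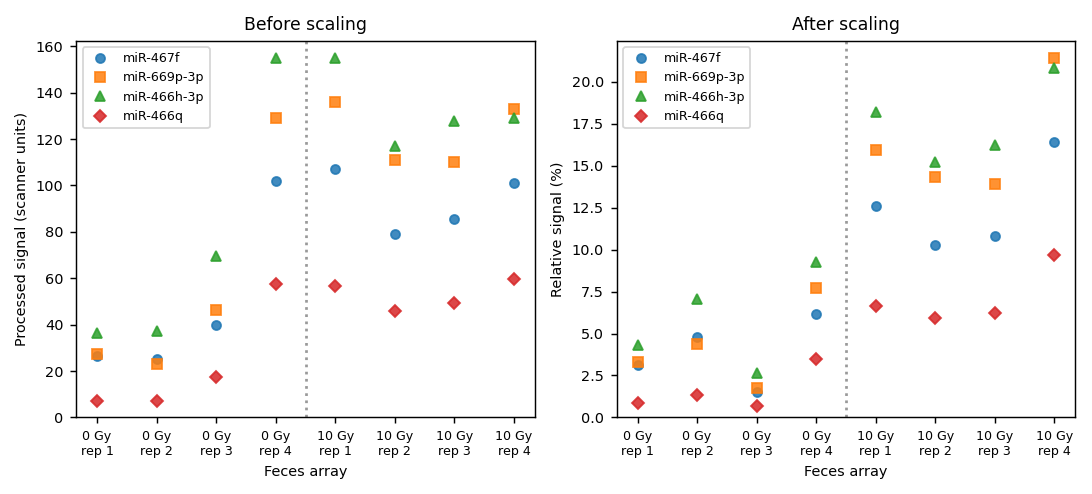
Processed signal in scanner units (left) and relative signal in percent (right) of 4 members on the 8 feces arrays, with a dotted line between doses; each point is 1 member on 1 array. Before scaling 0 Gy replicate 4 lies among the 10 Gy arrays, and after scaling all 0 Gy arrays lie below them.

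In serum 2 members of the family could be measured, and neither differed detectably between doses. Of the 2 members tested, none passed, against 4.66% of the 193 miRNAs tested, and their groups overlapped, as did all but 30.1%. miR-466i-5p had relative signals of 85.5% and 44.6% at 0 Gy and of 75%, 34.6%, 37.2% and 97.8% at 10 Gy. miR-669n had 10.2% and 4.48% at 0 Gy, and 10.9%, 4.84%, 4.14% and 11.2% at 10 Gy, and was detected on replicate 1 of each dose alone. The differences were -0.16 ± 0.51 for miR-466i-5p and 0.06 ± 0.54 for miR-669n (n = 4 and 2, limma adjusted p = 0.87 and 0.96). With 2 unirradiated arrays both errors were larger than those in intestine. The dose difference in serum minus that in intestine was -0.93 ± 0.64 for miR-466i-5p (limma adjusted p = 0.35) and -1.03 ± 0.72 for miR-669n (0.36), so a difference between the sample types was not shown. The summed red cell markers were 1760% to 2060% of the reference in serum at 0 Gy and 562% to 809% at 10 Gy, without overlap, with 2 of 3 and 1 of 3 detected on all arrays. Their part in the members' values was not tested. Outside the family, miR-574-3p rose in serum by 2.52 ± 0.39 (adjusted p = 0.018), from 4.11% and 5.77% to 19.5%, 22.5%, 48.6% and 28.8%. At 0 Gy it was detected on replicate 1 alone, near the serum floor of 4.04%. The size of its rise is therefore set in part against values not well above background. Of all calls in serum 22.2% were higher (2 higher, 7 lower). The share was 38.5% with normexp (5 and 8), 33.3% with quantile normalization (3 and 6) and 0% without scaling (0 and 3).

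miR-466i-5p had less signal in unirradiated serum than in unirradiated intestine, with both scaled over the 81 miRNAs that all 22 arrays detected. Of 9 members tested 8 were lower in serum and none higher in 1 limma fit of all 6 groups, where 59.1% of the 347 tested miRNAs were lower and 87.9% differed. The groups did not overlap for the same 8, among 61.1% of all tested miRNAs that were lower in serum without overlap. All of the 8 but miR-466i-5p were detected on neither serum array and could only come out lower. On this common scale miR-466i-5p was at 190% ± 38.4 in intestine (SD, n = 4) and at 42.4% ± 21.1 in serum (SD, n = 2), without overlap. It was 4.72-fold lower in serum (difference -2.24 ± 0.48, limma adjusted p = 0.00017), and the adjusted p was 0.64 with quantile normalization, where the difference was -0.30. Feces at 0 Gy had 103% ± 58.8 on that scale, given here without a test. The reference signal of the common scale ran from 216 to 17600 scanner units over the 22 arrays. Unscaled, miR-466i-5p had 850 to 1450 scanner units in intestine at 0 Gy and 2580 to 11200 in feces at 0 Gy. The order of intestine and feces therefore depends on the scaling.

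The other 7 lower members were detected on all 4 intestine arrays and on neither serum array. They entered the test through intestine, where they were high, and could only come out lower, so their count is no support. The fold of each is a lower bound from single probes. The bound sets the mean of the intestine arrays against the lowest signal of a detected probe in serum, or the probe's own where higher. miR-466q was at least 6.17-fold lower in serum, miR-466h-3p at least 4.59-fold, miR-669p-3p at least 4.51-fold and miR-467f at least 4.26-fold. miR-466i-3p, miR-669c-3p and miR-466f-3p were at least 2.87-fold, 2.19-fold and 2.02-fold lower. The serum values of these 7 all sat at the floor, so the fit saw no spread in serum and its p-values for them are no test. With normexp and its offset the call was lost for miR-466i-3p (adjusted p = 0.074) and miR-669c-3p (0.13). The exception was miR-669n, at 5.86% ± 1.35 in intestine and 4.80% ± 2.88 in serum, with a difference of -0.40 ± 0.52 (adjusted p = 0.47). Of the calls over all miRNAs 32.8% were higher in serum, and 44% were with quantile normalization and 19.4% with normexp. Here serum and intestine differ in slide as well as in sample type.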

How the data were processed

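RNA of 22 samples was labelled with Cy3 and hybridised to Agilent 1-colour miRNA arrays. The deposited intensity is the processed signal of each spot, made by the authors with Agilent Feature Extraction 11.5 (per the submitters' processing notes and the file headers), background-subtracted and not normalized between arrays. Median spot and background intensities, and deposited flags (other values of 0 or 1) for spots well above background or outlying, were also used. The authors' deposited series table equalled the processed signal within 1% at all 58594 spots of each array, which makes its scale linear without centring; the medians of its columns ran from -1.55 to 2.1. No spot was saturated. The array design names mm9, so gene annotation of GRCm38.p6 served only to place genes within or outside Sfmbt2, and sequences came from RefSeq of that build.

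Spots that were not outlying were averaged per probe and summed over probes. Each array was scaled to its 75th percentile of the miRNAs that every array of its sample type detected, which were 268 in intestine, 121 in serum and 326 in feces. Low values were then set to a floor, before log2. As the floor served the lowest scaled value among detected miRNAs (median over arrays), 1.81% in intestine, 4.04% in serum, 0.452% in feces and 1.17% on the scale common to all arrays. A miRNA entered the test when the number of arrays detecting it reached the size of the smaller group. Tests used limma 3.58.1 (R 4.3.3, lmFit and eBayes), with Benjamini-Hochberg adjustment and a threshold of 0.05. The number of arrays limits the precision. Serum and intestine at 0 Gy, and the difference of their dose effects, were compared in 1 fit of all 6 groups. The test was run on simulated data first.

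Named members were those detected on all arrays of a group or called in a tested comparison, 11 in all, and the 8 with the highest mean signal had every value printed. The members, lists and tests were chosen with earlier results of these data known. Equal replicate numbers were not taken as pairs, since deviations from the group means of same-numbered arrays correlated at -0.56, -0.022, 0.32 and 0.44 in intestine, -0.43, -0.21, 0.40 and 0.25 in feces, 0.28 and 0.44 in serum, and 0.032 and 0.15 between serum and intestine. Alternatives changed the background correction, scaling, floor, filter, probe summary, blocking and pooling, and left out each array. Normexp added an offset of 50 scanner units to every spot, which shrinks log2 differences of low signals. Single probes had a floor of their own, higher than that of the sums.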

Additional observations from a re-analysis of the deposited data

Results flagged for a closer look

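Of 49 groups of 4 arrays examined, 6 had an extreme array whose gap to its nearest neighbour was a large part of the group's range. Chance alone flags about 1 in 20. That rate does not hold for whole-number counts or for values at the floor, where ties can make the gap the whole range. In intestine at 0 Gy, replicate 1 had 21.3% for miR-466f-3p, where the others reached at most 14.4%, and 34.8% for miR-466h-3p, where the others reached at most 23.8%. In intestine at 10 Gy, replicate 2 had 8.43% for miR-669e-5p, where the others reached at most 2.01%. In feces at 0 Gy, replicate 4 had 1.35% for miR-669c-3p, where the others reached at most 0.153%, all below the floor of 0.452%. For the number of members detected, serum 10 Gy replicate 1 had 2 where the others had 1, and intestine 0 Gy replicate 3 had 8 where the others had 9, each a difference of 1 member.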

How the results depend on the processing

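The number of members called in intestine, 1 of 9, was 0 with normexp, after quantile normalization, with a percentile over all miRNAs, a lower floor, only miRNAs detected on every array (8 members tested), no filter, averaged log2 probe values and another pooling of the spread, and 9 without scaling. An unchanged count need not be the same member, as miR-669n lost its call in 14 alternatives and miR-669c-3p was called in 2. In feces the count of 8, which is no test of the family, was 0 with normexp, without scaling, with only miRNAs detected on every array and without a filter. Between serum and intestine it was 8, then 1 with only miRNAs detected on every array (1 tested) and 39 without a filter, where 29 of the 39 were higher in serum and 10 lower and most values sat at the floor. Leaving out 1 array gave 0 to 3 in intestine, 0 to 0 in serum, 0 to 10 in feces (10 when 0 Gy replicate 4 was dropped, 0 when a 10 Gy array or 0 Gy replicate 1 was) and 8 to 8 between serum and intestine. With the replicate block the counts were 0 in intestine, where miR-669n had an adjusted p of 0.052, and 8 in feces; it changed no other count. Same-numbered arrays did not all deviate together.

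Signs turned in intestine with normexp for miR-466f-3p (-0.25), miR-466h-3p (-0.11), miR-466i-3p (-0.20), miR-466q (-0.14), miR-467f (-0.11), miR-669c-3p (-0.19) and miR-669p-3p (-0.12), and with the percentile over all miRNAs for the same 7 in that order (-0.36, -0.42, -0.30, -0.36, -0.48, -0.24 and -0.41). With quantile normalization they turned for miR-466h-3p (-0.033), miR-466q (-0.027), miR-467f (-0.12) and miR-669p-3p (-0.045). In serum miR-669n turned with the percentile over all miRNAs (-0.15), quantile normalization (-0.035), no scaling (-0.67) and the scanner software's gene signal (-0.19). Between serum and intestine it turned with quantile normalization (0.76) and the percentile over all miRNAs (0.38). Within slide row 1, chosen after seeing the data, miR-467f (-0.11) and miR-466h-3p (-0.053) turned in intestine and miR-669n (-0.49) in serum, and in row 2 miR-466i-5p (0.43) turned in serum. Leaving out 1 array gave -0.040 to 0.19 for miR-467f in intestine, -0.63 to 0.30 for miR-466i-5p and -0.53 to 0.64 for miR-669n in serum, and -1.05 to 0.25 for miR-669n between serum and intestine. The causes were not tested. Detection used a share of spots per probe: 20 members were detected with all spots required, and 25 with 1 spot. Members near the floor have no resolvable order.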
